A study of Mus musculus with 18 samples.

Results

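The 10 genes described here, Foxp3, Ikzf2, Ikzf4, Il2ra, Lrrc32, Nrp1, Izumo1r, Gpr83, Itgae and Capg, belong to the expression signature of regulatory T (Treg) cells. They were taken by name: the Ensembl mouse identifiers in the first column of each count file were matched to gene symbols, and all 10 were found among the 37991 genes listed. Izumo1r is annotated under its older symbol Folr4. All 10 were among the 17240 genes tested, those whose normalized count averaged 3 or more in any group.

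The libraries were made from rRNA-depleted total RNA of CD4+ T cells enriched magnetically from the spleens of Tg4-H2u mice, which carry a transgenic T cell receptor for the Ac1-9 peptide of myelin basic protein. Male and female mice were used, aged at least 6 weeks. Tolerized mice (T) had received 7 subcutaneous doses of the 4Y version of this peptide, rising from 0.08 to 80 µg, and control mice (N, naive) had received PBS on the same plan. Cells were taken 2 h after a last injection of PBS (N0 and T0) or of 80 µg of 4Y peptide (NAg and TAg), or were cultured for 2 h with 20 ng/ml PMA and 2 µM of the calcium ionophore A23187 (NPI and TPI, together PI), drugs that enter the signalling chain below the receptor. Each of the 6 groups had 3 libraries, described by the study as biological replicates. No cultured control without PI was among the groups, so culture and PI cannot be told apart. The cells were not sorted for Foxp3 or CD25, so each library mixed whatever Treg cells the spleen held with the other CD4+ T cells, and in such bulk RNA fewer cells of a type and less RNA per cell cannot be told apart. Treg fractions were not measured in these files.

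Treg cells restrain other lymphocytes and keep tolerance to self. Foxp3 is the transcription factor that defines them, and Helios (Ikzf2) and Eos (Ikzf4) are zinc finger factors of the Ikaros family that act beside it. Most Treg cells carry much CD25 (Il2ra), the alpha chain that gives the IL-2 receptor its high affinity, and take up IL-2 made by other T cells. Conventional T cells also raise CD25 when their receptor is triggered, and other members of the signature are shared with activated T cells or with myeloid and dendritic cells, so those genes do not stand for Treg cells alone. The Tr1 cells for which this peptide schedule is known are a different suppressive population that makes IL-10 and does not depend on Foxp3.

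Promoter sequences are shown for the genes whose count is Treg-defining (Foxp3), moved furthest on stimulation (Il2ra), or held a match to a motif searched (Izumo1r). RefSeq lists 2 starts for Foxp3, and a gene count adds reads from both. The windows are the 250 bases before each start on GRCm38.p6, chrX:7579426-7579675 and chrX:7580233-7580482 on the + strand for Foxp3, chr2:11642542-11642791 on the + strand for Il2ra and chr9:14903768-14904017 on the - strand for Izumo1r, each written 5′ to 3′ along its gene. Capitals mark matches to 4 short motifs searched on both strands: TGANTCA (AP-1), TGGAAA (NFAT), TTCNNNGAA (STAT5) and TGTTTAC (forkhead).
Foxp3 start 1: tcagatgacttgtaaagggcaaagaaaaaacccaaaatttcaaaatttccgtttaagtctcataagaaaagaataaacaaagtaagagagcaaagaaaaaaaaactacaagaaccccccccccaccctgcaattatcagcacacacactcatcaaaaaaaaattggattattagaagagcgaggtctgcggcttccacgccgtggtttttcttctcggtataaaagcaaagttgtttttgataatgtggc
Foxp3 start 2: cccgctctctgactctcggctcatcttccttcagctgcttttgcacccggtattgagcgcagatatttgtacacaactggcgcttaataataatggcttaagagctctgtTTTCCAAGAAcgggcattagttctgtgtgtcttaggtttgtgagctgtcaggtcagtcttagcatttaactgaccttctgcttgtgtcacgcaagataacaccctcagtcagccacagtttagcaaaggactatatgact
Il2ra: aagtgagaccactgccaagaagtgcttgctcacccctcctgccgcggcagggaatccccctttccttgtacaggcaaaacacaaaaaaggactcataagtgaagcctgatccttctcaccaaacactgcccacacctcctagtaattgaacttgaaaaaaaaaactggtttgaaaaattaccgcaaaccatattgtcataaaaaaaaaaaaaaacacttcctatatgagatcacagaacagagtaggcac
Izumo1r: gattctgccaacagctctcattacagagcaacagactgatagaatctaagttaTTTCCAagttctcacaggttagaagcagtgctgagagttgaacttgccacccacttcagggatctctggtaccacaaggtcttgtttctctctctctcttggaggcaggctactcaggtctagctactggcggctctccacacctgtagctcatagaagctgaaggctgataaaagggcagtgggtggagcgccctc
In the window of the second Foxp3 start the NFAT letters began 140 bases and the STAT5 letters 139 bases before the start, and the matches overlap. Izumo1r held the NFAT letters 197 bases before its start. The other windows, those of the first Foxp3 start, Il2ra, Nrp1, Gpr83 and Capg, held none of the 4. Among 32851 mouse promoter windows of the same length, 18.6% held the NFAT letters, 7.02% the STAT5 letters, 6.75% the AP-1 letters and 3.17% the forkhead letters. These are letter matches and not measured binding.

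Library totals ran from 10758571 to 13559974 counts at rest and after peptide and from 14895843 to 24119489 counts after PI. Markers of T cells summed to 2686 to 6161 CPM in every library, with Cd3e at 1732 to 4804 and Cd4 at 2142 to 7281 normalized counts. Neutrophil markers moved with tolerance: their sum was 5.59 to 13.6 CPM in N0 and 129 to 230 CPM in T0, 10.2 to 28.9 CPM in NAg and 168 to 303 CPM in TAg, and 4.66 to 12.6 CPM in NPI and 29.0 to 49.3 CPM in TPI. Of the 10 neutrophil markers 9 were higher in T0 than in N0, 10 in TAg than in NAg and 6 in TPI than in NPI, and Ngp, Ltf, Camp and Ly6g were at 0 in all NPI libraries. Erythroid markers spanned 3.44 to 16.2 CPM in N0 and 19.3 to 166 CPM in T0, and 2 of 9 were higher there. Their part in the differences between tolerized and naive cells was not tested apart from the fit with marker scores given with the counts. Y-linked reads split the libraries into 9 with at least 5111 such reads and 9 with at most 18, so male and female mice were spread unevenly: no N0 or NAg library, 2 of 3 T0, 1 of 3 TAg and all 6 PI libraries held them. In naive cells sex and PI therefore cannot be told apart.

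Tolerized cells held more RNA of most of these genes. With edgeR's quasi-likelihood test and Benjamini-Hochberg adjustment over all tested genes, 7 of the 10 were higher in T0 than in N0 (Foxp3, Ikzf2, Il2ra, Nrp1, Itgae, Izumo1r and Capg), against a background of 8.42% of all tested genes called higher. After peptide 4 of the 10 were higher in TAg than in NAg (Ikzf2, Nrp1, Izumo1r and Capg), against 20.9% of all genes. After PI the 7 genes higher in T0 were again higher in TPI than in NPI, against 18.2% of all genes. The median log2 fold change of the 10 was 1.15 in T0 against N0, 0.44 in TAg against NAg and 1.25 in TPI against NPI, where the medians of all tested genes were -0.08, 0.01 and -0.04. No member was called lower in these comparisons by edgeR's quasi-likelihood test, by DESeq2, or at an unadjusted p under 0.05 in edgeR, where 12.0%, 18.5% and 19.7% of all genes were called lower. The libraries of the compared groups did not overlap for 6 members in T0 against N0 (35.0% of all genes), for 4 in TAg against NAg (47.7%) and for 7 in TPI against NPI (50.5%).

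**Figure D1:**
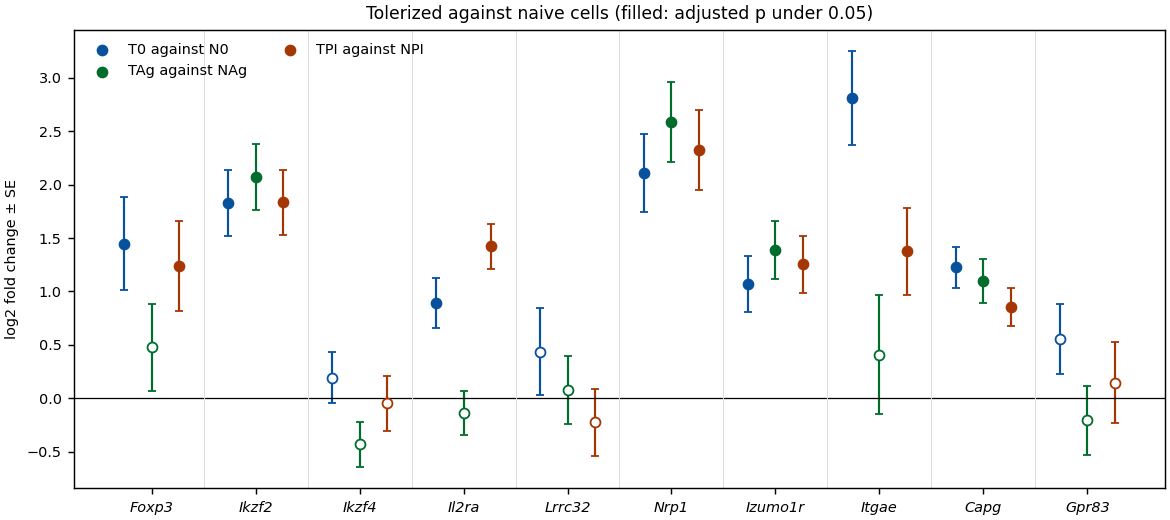
Log2 fold change of tolerized against naive cells for the 10 genes (points; bars are the standard error from edgeR), at rest (T0 against N0), after peptide (TAg against NAg) and after PI (TPI against NPI). Filled points passed an adjusted p of 0.05. Ikzf2, Nrp1, Izumo1r and Capg are filled and above 0 in all 3 comparisons, while Foxp3, Il2ra and Itgae are filled at rest and after PI but open after peptide.

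The count at rest depended on the libraries and on what was adjusted for. Without N0 replicate 2 it was 5 of 10 and without T0 replicate 3 it was 8 of 10. With a term for Y-linked reads it was 4, in a fit of N0 and T0 alone it was 3, and with erythroid and myeloid marker scores of each library as covariates it was 0, with 5 members at an unadjusted p under 0.05. The log2 fold changes of the 7 under the marker scores were still all above 0, from 0.76 for Izumo1r to 2.16 for Itgae. The myeloid score was -0.40 to 0.18 in N0 and 1.40 to 1.91 in T0, so in that fit the score and the cell state cannot be told apart. With the same covariates 2 of 10 passed in TPI against NPI and 4 of 10 still passed in TAg against NAg. The share of all genes called was not counted in any of these other fits. These counts therefore do not show whether the members lost more calls than other genes. Among libraries without Y-linked reads, the only such T0 library, replicate 3, lay above all 3 N0 libraries for 6 members (28.1% of all genes lay so), below all of them for Lrrc32, and within them for Foxp3, Ikzf4 and Gpr83.

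Foxp3 (ENSMUSG00000039521, chrX:7156802-7172369, + strand, NCBIM37) was low in resting naive cells and spread widely among replicates. Its normalized counts were 367.5, 148 and 275 in N0 and 776, 1043 and 339.5 in T0 (replicates 1, 2 and 3, as in all such lists). The third T0 library lay below the highest N0 library, so the groups overlapped. The log2 fold change of T0 against N0 was 1.45 ± 0.43 (SE; 2.73-fold, adjusted p = 0.0336). This call was lost without N0 replicate 2 (log2 fold change 1.16, adjusted p = 0.132), N0 replicate 3 (adjusted p = 0.088), T0 replicate 1 (adjusted p = 0.0912) or T0 replicate 2 (log2 fold change 1.07, adjusted p = 0.147), and with the Y-linked term (log2 fold change 0.95, adjusted p = 0.337). It was also lost with marker scores (1.27, adjusted p = 0.506) and with the groups compared alone (1.53, adjusted p = 0.187). Foxp3 is itself X-linked.

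After peptide Foxp3 rose in naive cells. The NAg libraries held 904, 747 and 431 normalized counts and the TAg libraries 1288, 679.6 and 922. All 3 NAg values lay above all 3 N0 values, and the NAg and TAg ranges overlapped. NAg against N0 gave a log2 fold change of 1.39 ± 0.44 (adjusted p = 0.0134), a call lost without N0 replicate 2 (adjusted p = 0.0689) or NAg replicate 1 (adjusted p = 0.0575). TAg against T0 gave 0.42 ± 0.41 (adjusted p = 0.404) and TAg against NAg gave 0.48 ± 0.41 (adjusted p = 0.399). Thus the cell-state difference seen at rest was not detected after peptide, but the difference between the responses did not pass the test either (-0.97 ± 0.60, adjusted p = 0.299).

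PI gave the tightest Foxp3 values of the series. They were 386, 359.6 and 395 in NPI and 789, 779 and 1118 in TPI, 2 ranges that did not overlap. The difference was a log2 fold change of 1.24 ± 0.42 (adjusted p = 0.0345), lost without any of the 3 NPI replicates (adjusted p = 0.0854, 0.0863 and 0.0801) or TPI replicate 3 (adjusted p = 0.115). The call was also lost with marker scores (1.01, adjusted p = 0.384). All 6 of the NPI and TPI libraries held Y-linked reads. Neither NPI against N0 (0.53 ± 0.45) nor TPI against T0 (0.32 ± 0.40) was called. Of the exonic sequence of Foxp3, 373 bases are shared with Ppp1r3f and 590 bases with Ccdc22 on the opposite strand and 267 bases with 4930524L23Rik on the same strand. Those genes held at most 392, 24 and 180 counts in a library. The strand setting of the counting is not given in the sources used here, so reads in the shared bases cannot be told apart.

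Helios RNA, from Ikzf2 (ENSMUSG00000025997, chr1:69577788-69732534, - strand), separated tolerized from naive cells in every condition. The resting values were 1689.9, 742 and 1426 in N0 and 4465, 5233 and 4018 in T0. After peptide they were 2275, 1561 and 944 in NAg and 5898.5, 7305 and 6883 in TAg, and after PI 1882, 2011 and 1785 in NPI and 7787, 6119 and 6319.6 in TPI. Each of the 9 tolerized libraries lay above each of the 9 naive libraries. The log2 fold changes were 1.83 ± 0.31 at rest (adjusted p = 0.00126), 2.07 ± 0.31 after peptide (adjusted p = 0.000165) and 1.83 ± 0.31 after PI (adjusted p = 0.000365). They stayed past the threshold whichever library was left out. With marker scores the calls at rest (1.36, adjusted p = 0.269) and after PI (1.41, adjusted p = 0.0693) were lost. Stimulation moved Ikzf2 little, with log2 fold changes of 0.31 to 0.56 in the 4 responses and none called. The TAg and TPI libraries nevertheless all lay above the T0 libraries, and the NPI libraries above the N0 libraries. In fits of the groups compared alone TAg against T0 (0.51, adjusted p = 0.00386) and TPI against T0 (0.58, adjusted p = 0.0045) passed.

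Eos RNA, from Ikzf4 (ENSMUSG00000002578, chr10:128067899-128083047, - strand), changed with the peptide. The resting values, 206, 120.05 and 192 in N0 and 218, 232 and 143 in T0, overlapped. After peptide they were 920.5, 768 and 564 in NAg and 609, 499.6 and 561 in TAg, above every resting library. After PI they were 111, 101 and 148 in NPI and 132, 99.9 and 118 in TPI. The TPI libraries all lay below the T0 libraries, and the NPI libraries overlapped the lower part of the N0 range. The response to peptide was a log2 fold change of 2.12 ± 0.23 in naive cells (adjusted p = 6.82e-07) and 1.49 ± 0.23 in tolerized cells (adjusted p = 3.14e-05). The response to PI was -0.52 ± 0.25 in naive cells (adjusted p = 0.0876) and -0.76 ± 0.24 in tolerized cells (adjusted p = 0.0123), the second a fall that passed the test. With marker scores the call in tolerized cells was lost (-0.53, adjusted p = 0.561). In naive cells the fall passed by DESeq2 (-0.49, adjusted p = 0.0439). It also passed without N0 replicate 2 (log2 fold change -0.77, adjusted p = 0.0108) or NPI replicate 3 (-0.70, adjusted p = 0.0434). Tolerized and naive cells did not differ in Ikzf4 past the threshold in any condition. Their log2 fold changes were 0.19 ± 0.24, -0.43 ± 0.21 and -0.05 ± 0.26. After peptide the difference passed without NAg replicate 3 (log2 fold change -0.60, adjusted p = 0.0365), as the lower in tolerized cells.

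**Figure D2:**
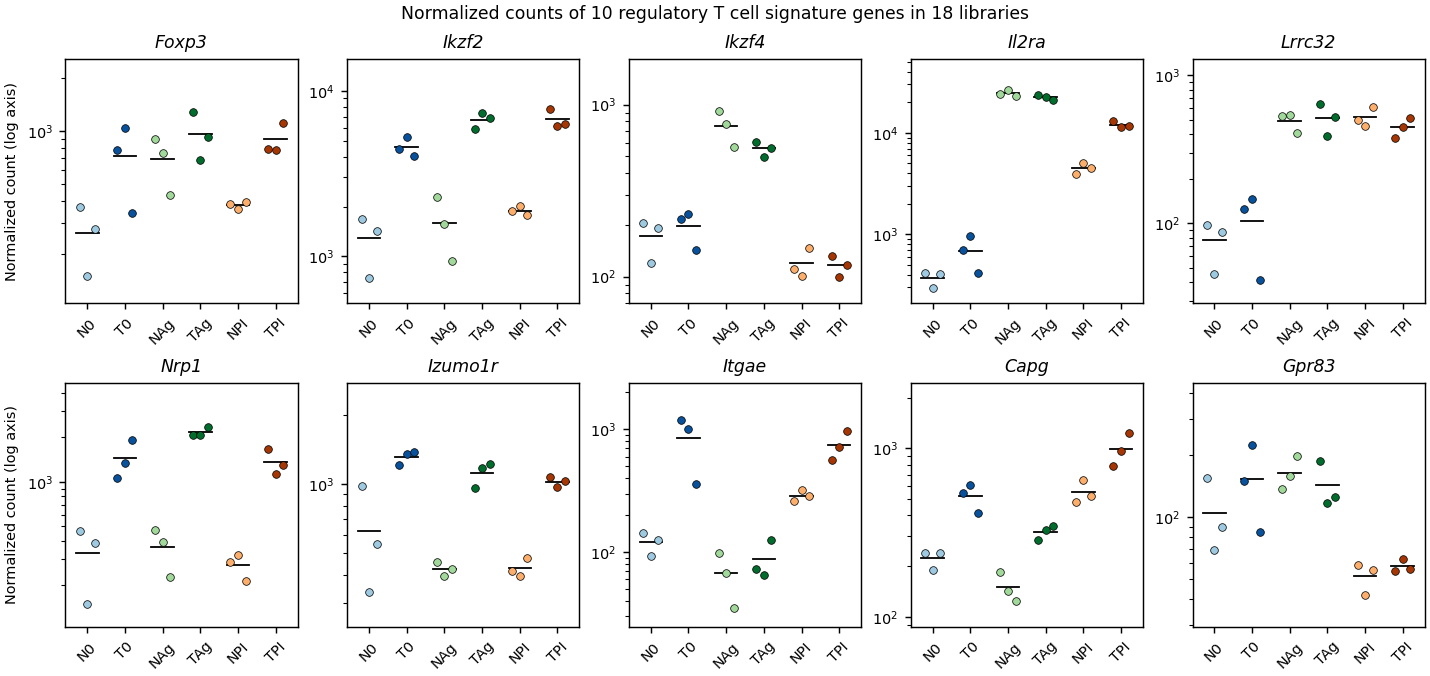
Normalized counts (log axes, a scale per gene) of the 10 genes in the 3 libraries of each group, replicates 1 to 3 from left to right, with the group mean as a bar. Ikzf2 and Nrp1 show the tolerized groups above the naive groups throughout, Il2ra rises from at most 963 at rest to at least 21269 after peptide, and the 6 libraries taken after peptide hold the highest Ikzf4 values.

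Il2ra (ENSMUSG00000026770, chr2:11564419-11614818, + strand) changed more on stimulation than any other of the 10. The resting values were 416, 299 and 406 in N0 and 695, 963 and 420.1 in T0. Peptide took them to 24242, 26690 and 23344 in NAg and 23633, 22782 and 21269 in TAg. PI took them to 3946.5, 5089 and 4462 in NPI and 13076, 11383 and 11733 in TPI. Every stimulated library lay above every resting library, and peptide gave higher values than PI in both cell states. The rise with peptide was 66.2-fold in naive cells (log2 fold change 6.05 ± 0.26, adjusted p = 4.02e-11) and 32.5-fold in tolerized cells (5.02 ± 0.25, adjusted p = 2.56e-10). With PI it was 12.0-fold in naive cells (3.59 ± 0.24, adjusted p = 9.8e-09) and 17.4-fold in tolerized cells (4.12 ± 0.24, adjusted p = 1.43e-09).

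Il2ra was higher in tolerized cells at rest and after PI and not detectably different after peptide. At rest the log2 fold change was 0.89 ± 0.23 (adjusted p = 0.015). The third T0 library, at 420.1, lay just above the highest N0 library, at 416, and the call was lost without N0 replicate 2 (adjusted p = 0.0716), with the Y-linked term (0.62, adjusted p = 0.204), with the groups compared alone (adjusted p = 0.163) and with marker scores (adjusted p = 0.296). Among libraries without Y-linked reads the log2 ratio of T0 to N0 was 0.17. After PI the log2 fold change was 1.42 ± 0.21 (adjusted p = 0.000112), past the threshold whichever library was left out. After peptide it was -0.13 ± 0.21 (adjusted p = 0.652), with overlapping libraries. The response to peptide was smaller in tolerized cells, with a difference of -1.03 ± 0.31 on the log2 scale (adjusted p = 0.0298). It missed the threshold in 6 of 12 fits that left out 1 library, without N0 replicate 2, T0 replicate 1 or 2, NAg replicate 2 or TAg replicate 2 or 3 (-1.03 to -0.69, adjusted p = 0.0524 to 0.0802), with marker scores (adjusted p = 0.0673), the Y-linked term (adjusted p = 0.0754) and the groups compared alone (adjusted p = 0.0682). Among all tested genes 7.09% had a smaller and 14.6% a larger response to peptide in tolerized cells. The response to PI differed by 0.53 ± 0.31 (adjusted p = 0.274).

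The other parts of the IL-2 pathway, in a list of 10 genes, moved with stimulation as well. In NAg against N0, 8 of the 10 were higher and 2 lower, with a median log2 fold change of 1.57, where 32.1% of all tested genes were higher and 33.4% lower. Il2 itself, the cytokine, went from 8.38 ± 2.19 to 4452 ± 1209 normalized counts (mean ± SD, n = 3) in naive cells and from 4.54 ± 2.66 to 717 ± 175 in tolerized cells, and TAg was below NAg (log2 fold change -2.63 ± 0.25, adjusted p = 2.95e-06). After PI the order turned, with Il2 higher in TPI than in NPI (0.97 ± 0.23, adjusted p = 0.0044). Il2rb, the beta chain, followed Il2ra at rest and after PI: it was higher in T0 than in N0 (1.64 ± 0.26, adjusted p = 0.000874) and in TPI than in NPI (1.57 ± 0.26, adjusted p = 0.000321), and after peptide the difference was -0.05 ± 0.25 (adjusted p = 0.911). Il2rg, the common gamma chain, was lower in T0 than in N0 (-0.31 ± 0.07, adjusted p = 0.00263) and higher in TPI than in NPI (0.24 ± 0.07, adjusted p = 0.00764).

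Further down, Stat5a, a factor activated by IL-2, was lower in TAg than in NAg (-1.05, adjusted p = 4.91e-09) and higher in TPI than in NPI (0.76, adjusted p = 5.04e-07). Stat5b did the same (-0.61, adjusted p = 2.26e-07, and 0.40, adjusted p = 4.73e-05). The feedback inhibitors Cish and Socs1 rose with peptide in naive cells (4.97 and 4.72) and less so in tolerized cells (3.78 and 3.61), and the difference in response passed for both (-1.19, adjusted p = 0.00165, and -1.11, adjusted p = 3.81e-05). Jak3, the kinase on the gamma chain, was higher in tolerized cells in all 3 conditions (0.68, 0.62 and 1.08, adjusted p = 1.12e-05, 6.19e-06 and 2.02e-09). Jak1 (0.33 in TAg against NAg and -0.38 in TPI against NPI) and the survival gene Bcl2 (0.58 and -0.50) were higher in tolerized cells after peptide and lower after PI, all 4 past the threshold.

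Lrrc32 (ENSMUSG00000090958, chr7:105642732-105650341, + strand), which encodes GARP, the surface protein that holds latent TGF-beta on activated Treg cells, rose with either stimulus. The values were 98.1, 45.9 and 88.3 in N0 and 126, 147 and 41.2 in T0. Peptide gave 535, 539 and 407 in NAg and 644, 392 and 521 in TAg, and PI gave 502, 452 and 611 in NPI and 379, 446 and 519 in TPI. Every stimulated library lay above every resting one. The log2 fold changes were 2.66 ± 0.37 and 2.30 ± 0.35 with peptide in naive and tolerized cells (adjusted p = 2.43e-05 and 6.88e-05) and 2.75 ± 0.37 and 2.09 ± 0.35 with PI (adjusted p = 2.17e-05 and 0.000141). Cell state made no difference that passed the test, with log2 fold changes of 0.44 ± 0.41, 0.08 ± 0.32 and -0.22 ± 0.31. Platelets also carry GARP, and the sum of 8 platelet markers was lower after either stimulus than at rest: 163 to 311 CPM over the resting libraries and 35.3 to 105 CPM over the stimulated ones. With peptide this lower sum came mainly from Itgb3 (-3.14 in NAg against N0 and -2.25 in TAg against T0), the member called lower of the 8, and the median of the list was 0.295 and 0.162. With PI 8 of 8 were lower in naive and 6 of 8 in tolerized cells. The part of platelets in the Lrrc32 values was not tested.

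Genes that act with GARP differed between cell states. Itgb8, a chain of the integrin that frees active TGF-beta, rose from 89.8 ± 50.5 normalized counts in N0 to 325 ± 163 in NAg and from 266 ± 49.4 in T0 to 2195 ± 177 in TAg (mean ± SD, n = 3). It was higher in tolerized than naive cells by log2 fold changes of 1.55 ± 0.39 at rest, 2.76 ± 0.33 after peptide and 2.16 ± 0.31 after PI (adjusted p = 0.0148, 2.61e-05 and 0.000114). Tgfb1, the cytokine, rose with peptide (2.48 in naive and 1.84 in tolerized cells) and was lower in TAg than in NAg (-0.71 ± 0.08, adjusted p = 2.63e-07). After PI Tgfb1 lay the other way, at 4389 to 5096 normalized counts in NPI and 5847 to 6476 in TPI. Nrros, a relative of Lrrc32, was lower in TPI than in NPI (-0.57 ± 0.07, adjusted p = 1.37e-06). After peptide Nrros lay the other way, at 1286 to 1378 normalized counts in NAg and 1526 to 1757 in TAg.

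Nrp1 (ENSMUSG00000025810, chr8:130882973-131029362, + strand), the neuropilin receptor that marks many thymus-derived Treg cells, had the pattern of Ikzf2. The values were 465, 149 and 384 in N0 and 1065, 1348 and 1900 in T0. After peptide they were 469, 389 and 227 in NAg and 2079.6, 2079 and 2333 in TAg, and after PI 286, 322 and 213 in NPI and 1664, 1119.5 and 1306 in TPI. All 9 tolerized libraries lay above all 9 naive ones. The log2 fold changes were 2.11 ± 0.37 at rest, 2.59 ± 0.37 after peptide and 2.33 ± 0.37 after PI (adjusted p = 0.00152, 0.000117 and 0.000264), and no left-out library ended a call. The call at rest was lost in the fit of the groups compared alone (adjusted p = 0.0574) and with marker scores (1.68, adjusted p = 0.285). The third T0 library, lowest of its group for 8 members, was the highest for Nrp1 and Izumo1r. None of the 4 responses passed the test (-0.29 to 0.59), though TAg against T0 passed in the fit of these groups alone (0.56, adjusted p = 0.0473). Dendritic cells also express Nrp1. The sum of 10 dendritic markers was 59.6 to 121 CPM over all libraries, with ranges that overlapped between tolerized and naive cells in each condition. Of the 10 markers 0 were called in T0 against N0, 1 was higher and 1 lower in TAg against NAg, and 2 were lower in TPI against NPI. The part of dendritic cells in the Nrp1 values was not tested.

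Izumo1r (ENSMUSG00000031933, chr9:14690258-14708395, - strand), which encodes folate receptor 4, shared this difference at a smaller size. The values were 981, 338 and 547 in N0 and 1202, 1348 and 1382 in T0. They were 457, 397 and 425 in NAg and 958, 1167 and 1217 in TAg, then 415, 397 and 472 in NPI and 1073, 970.2 and 1024 in TPI. Only N0 replicate 1, at 981, reached the tolerized range, where TAg replicate 1 and TPI replicate 2 lay below it. The log2 fold changes were 1.07 ± 0.26, 1.39 ± 0.27 and 1.25 ± 0.27 at rest, after peptide and after PI (adjusted p = 0.0117, 0.00122 and 0.00218). At rest the call was lost without N0 replicate 3 (adjusted p = 0.0519), with the Y-linked term (adjusted p = 0.061), with the groups compared alone (adjusted p = 0.168) and with marker scores (adjusted p = 0.541). The call after PI was lost with marker scores (0.93, adjusted p = 0.196). In naive cells the fall with either stimulus did not pass with all libraries (log2 fold changes -0.55 and -0.54) and passed without N0 replicate 2 (-0.90, adjusted p = 0.000499, and -0.88, adjusted p = 0.00064). In tolerized cells falls with peptide (-0.27, adjusted p = 0.022) and PI (-0.34, adjusted p = 0.000457) passed only with the groups compared alone.

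Gpr83, an orphan receptor gene (ENSMUSG00000031932, chr9:14664654-14675233, + strand), lies beside Izumo1r, 15024 bases away with no annotated gene between them, and did not share its pattern. The values were 155, 68.9 and 89.2 in N0 and 150.4, 225 and 84.4 in T0. They were 137, 159 and 199 in NAg and 187, 117 and 125 in TAg, and 58.2, 41.8 and 55.2 in NPI and 54.9, 62.6 and 55.9 in TPI. The 6 PI libraries held the lowest values, all below every other library, and the tolerized and naive ranges overlapped in each condition. PI lowered it in tolerized cells (-1.42 ± 0.34, adjusted p = 0.00186) and in naive cells (-1.01 ± 0.36, adjusted p = 0.0249), the latter lost without N0 replicate 1 (-0.65, adjusted p = 0.121), NPI replicate 2 (adjusted p = 0.0835) or NPI replicate 3 (adjusted p = 0.0501). Peptide gave 0.66 ± 0.33 in naive and -0.10 ± 0.32 in tolerized cells, neither called. In naive cells the rise was called by DESeq2 (0.72, adjusted p = 0.0359) and without N0 replicate 1 (1.01, adjusted p = 0.0133). The T0 against N0 difference (0.56 ± 0.33, adjusted p = 0.264) passed without N0 replicate 1 (0.95, adjusted p = 0.0483) or T0 replicate 3 (0.84, adjusted p = 0.0396).

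Itgae (ENSMUSG00000005947, chr11:72904085-72960948, + strand) encodes CD103, the integrin alpha chain that binds E-cadherin on epithelium. It was higher in tolerized cells at rest, and it fell with peptide in tolerized cells. The values were 145, 94.0 and 126 in N0 and 1198.5, 1004 and 357 in T0. After peptide they were 99.5, 68.1 and 35.2 in NAg and 72.7, 65.6 and 126 in TAg, and the TAg libraries overlapped the NAg and N0 libraries. After PI they were 262, 319 and 286 in NPI and 567, 713 and 964 in TPI. T0 was above N0 by a log2 fold change of 2.81 ± 0.44 (7.01-fold, adjusted p = 0.000734), although T0 replicate 3, the only T0 library without Y-linked reads, held less than the others and stood at a log2 ratio of 1.55 to N0. With marker scores the call at rest was lost (adjusted p = 0.202). TAg against T0 gave a log2 fold change of -3.26 ± 0.46 (9.60-fold lower, adjusted p = 3.28e-05). In naive cells peptide gave -0.86 ± 0.53 (adjusted p = 0.176), and the responses differed by -2.40 ± 0.71 (adjusted p = 0.0296). This difference missed the threshold in 8 of 12 fits that left out 1 library, without N0 replicate 2 or 3, T0 replicate 1 or 2, NAg replicate 1 or 2 or TAg replicate 1 or 2 (-2.41 to -2.02, adjusted p = 0.0548 to 0.114), with marker scores (adjusted p = 0.0795) and with the groups compared alone (adjusted p = 0.0646).

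With PI, Itgae was not called changed in tolerized cells (-0.19 ± 0.38, adjusted p = 0.677) and rose in naive cells (1.25 ± 0.45, adjusted p = 0.0287). The rise was lost without N0 replicate 1 (adjusted p = 0.052), N0 replicate 2 (adjusted p = 0.108), N0 replicate 3 (adjusted p = 0.0729), NPI replicate 2 (adjusted p = 0.0692) or NPI replicate 3 (adjusted p = 0.0553), and with a term for Y-linked reads it became -0.11 (adjusted p = 0.862). TPI was above NPI (1.37 ± 0.40, adjusted p = 0.0164), lost without NPI replicate 1 (adjusted p = 0.0601), NPI replicate 3 (adjusted p = 0.0508) or TPI replicate 3 (adjusted p = 0.0679). This call was also lost with marker scores (0.71, adjusted p = 0.533). Itgb7, the beta chain that pairs with CD103, fell with peptide in both cell states, from 6573 ± 551 to 763 ± 149.5 normalized counts in naive cells (-3.11 ± 0.12, adjusted p = 8.69e-15) and from 6913 ± 532 to 1389 ± 26.2 in tolerized cells (-2.32 ± 0.12, adjusted p = 7.81e-13). It was higher in TAg than in NAg (0.87 ± 0.12, adjusted p = 1.02e-05). CD103 is also found on CD8+ T cells and some dendritic cells. The sum of 7 CD8 and NK markers was 59.0 to 99.1 CPM in N0, 98.9 to 117 CPM in T0 and 148 to 199 CPM in TAg, but its members did not move together: in TAg against T0, 2 were higher and 1 lower, with a median log2 fold change of -0.155. Cd8b1, a chain of CD8 itself, was 190 to 215 normalized counts in N0, 67.1 to 92.0 in T0 and 33.4 to 58.4 in TAg. It was thus lower in TAg than in T0, as Itgae was, but lower in T0 than in N0, where Itgae was higher. Cd8a, another CD8 chain, was 17.8 to 44.6 in N0, 14.4 to 33.6 in T0 and 17.6 to 47.1 in TAg, ranges that overlapped. The part of CD8+ cells in the Itgae values was not tested.

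Capg (ENSMUSG00000056737, chr6:72494385-72512977, + strand), which encodes an actin-capping protein, differed between cell states in all conditions and between stimuli in opposite directions. The values were 239, 190 and 241 in N0 and 544, 609 and 414 in T0. They were 183, 143 and 124 in NAg and 286, 328 and 348 in TAg, and 479.5, 651 and 525 in NPI and 789, 963 and 1229.8 in TPI. Within each condition every tolerized library lay above every naive one, by log2 fold changes of 1.23 ± 0.19, 1.10 ± 0.21 and 0.85 ± 0.18 (adjusted p = 0.000352, 0.000577 and 0.00122). Peptide lowered Capg in tolerized cells (-0.70 ± 0.19, adjusted p = 0.00384) and in naive cells (-0.57 ± 0.21, adjusted p = 0.0256), the latter lost without N0 replicate 1 (adjusted p = 0.0658), N0 replicate 3 (adjusted p = 0.0636), NAg replicate 2 (adjusted p = 0.0744) or NAg replicate 3 (adjusted p = 0.126). PI raised it in both (1.30 ± 0.19, adjusted p = 1.96e-05, and 0.93 ± 0.18, adjusted p = 0.000232). Myeloid cells express much Capg. The neutrophil sums above were higher in tolerized than naive cells in each condition, and 10 macrophage markers summed to 44.5 to 69.0 CPM in N0, 101 to 131 in T0, 44.1 to 173 in NAg, 72.6 to 109 in TAg, 21.6 to 29.6 in NPI and 43.1 to 50.2 in TPI. The higher T0 sum came mainly from Lyz2 (2.38 in T0 against N0), which neutrophils also express, while the median over the 10 was -1.08 in T0 against N0, with 1 higher and 1 lower, and -2.235 in TAg against NAg, with 1 higher and 7 lower. The PI groups, where Capg was highest, had the lowest macrophage sum for their cell state. The part of other cells in the Capg differences, between cell states or with stimulation, was not tested. With marker scores as covariates the Capg log2 fold change in T0 against N0 was 0.92 (adjusted p = 0.245). In TPI against NPI it was 0.57 (adjusted p = 0.245).

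**Figure D3:**
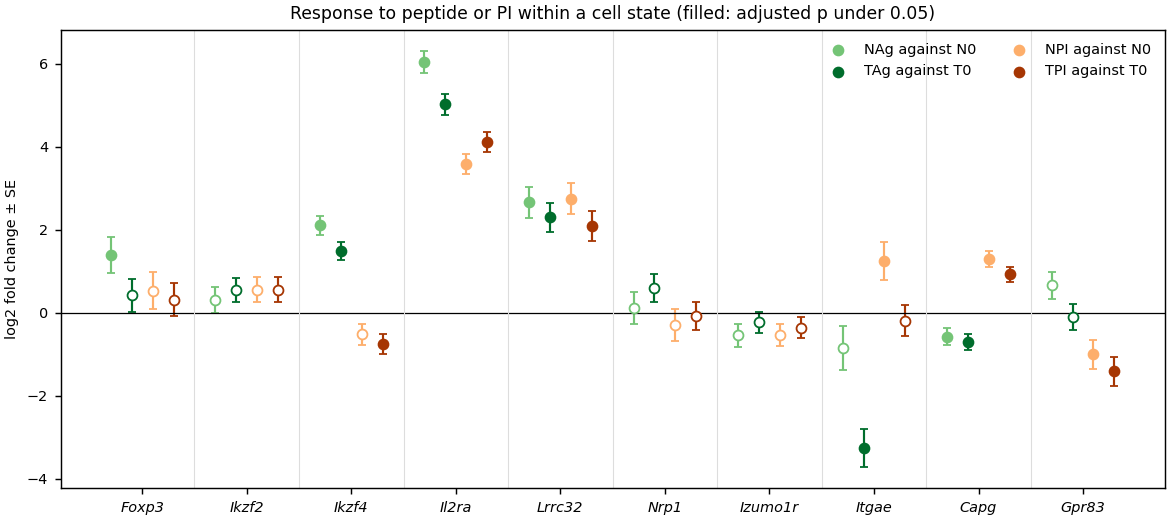
Log2 fold change (points; bars are the standard error from edgeR) of each gene on stimulation: peptide in naive (NAg against N0) and tolerized (TAg against T0) cells and PI in naive (NPI against N0) and tolerized (TPI against T0) cells. Filled points passed an adjusted p of 0.05. Il2ra and Lrrc32 are filled and above 0 in all 4, Ikzf4 is above 0 with peptide and below 0 with PI, Capg is below 0 with peptide and above 0 with PI, and Itgae falls to -3.26 in TAg against T0.

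Stimulation called about as large a share of the members as of all genes, or a smaller one. In NAg against N0, 4 members were higher and 1 was lower (32.1% and 33.4% of all genes), and in TAg against T0, 3 were higher and 2 lower (29.9% and 29.8% of all genes). In NPI against N0, 4 were higher and 1 lower (28.6% and 32.7%), and in TPI against T0, 3 were higher and 2 lower (32.0% and 36.3%). These comparisons share their resting libraries within a cell state. Groups did not overlap for 5, 7, 6 and 7 of the 10 members in that order, where 68.1%, 64.5%, 66.4% and 72.5% of all genes did not. The PI response differed between cell states for no member by edgeR's quasi-likelihood test or DESeq2, with 1 (Itgae) at an unadjusted p under 0.05 in edgeR, where 12.7% of all genes had a larger and 7.52% a smaller response in tolerized cells.

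Scaled for exon length, the order of the 10 genes changed with the group. In N0 the highest level was that of Izumo1r, at 19.6 CPM per kb of exon, followed by Ikzf2 at 9.997, and Foxp3 stood at 4.88. In T0 Izumo1r and Ikzf2 led again, at 41.3 and 35.5 CPM per kb, with Foxp3 at 13.3 and Itgae at 13.6. In every stimulated group Il2ra led, from 64.7 CPM per kb in NPI to 356 in NAg. Gpr83 was the lowest or next to lowest in every group and stood at 0.830 CPM per kb in TPI. Scaling by the longest annotated transcript instead raised Izumo1r and Capg most, to 35.3 and 11.7 CPM per kb in N0, since their exon unions of 2322 and 2529 bases are longer than their longest transcripts of 1291 and 1400 bases.

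In N0, T0 and NAg most members deviated together. N0 replicate 2 was the lowest of its group for all 10 members, where 29.9% of all tested genes were lowest in it, and N0 replicate 1 was the highest for 9 of 10, against 33.0% of all genes. T0 replicate 3 was lowest for 8 (28.9% of all genes), and so was NAg replicate 3 (31.2%). The highest over the lowest Foxp3 value within a group was 2.48 in N0, 3.07 in T0 and 1.1 in NPI. In TAg and TPI at most 6 members were lowest in the same library, and in NPI at most 5. The counts that use N0, T0 or NAg rest on libraries in which most members lay on the same side.

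**Figure D4:**
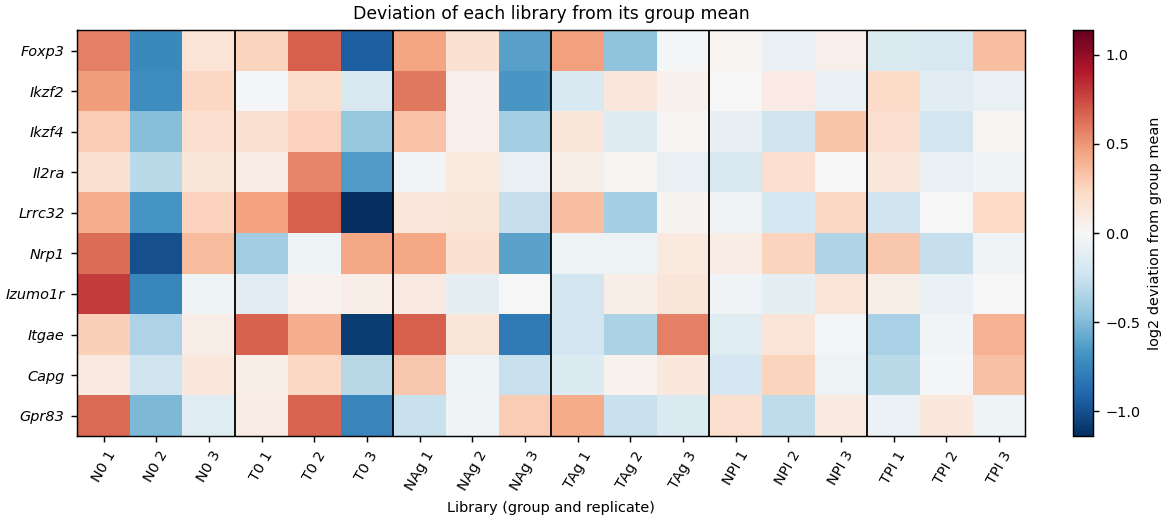
Deviation of each library from its group mean (log2 scale; red above and blue below) for the 10 genes and 18 libraries, with black lines between groups. The column of N0 replicate 2 is blue for all 10 genes, and that of T0 replicate 3 is blue for all but Nrp1 and Izumo1r.

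Dividing each gene by Foxp3 in the same library shows how far the members moved apart. Ikzf2 stood at a log2 ratio of 2.30 ± 0.089 (SD, n = 3) to Foxp3 in N0 and of 1.17 ± 0.14 in NAg, while TAg was at 2.84 ± 0.62. Nrp1 went from 0.28 ± 0.24 in N0 to -0.94 ± 0.010 in NAg and stood at 1.21 ± 0.47 in TAg. In naive cells after peptide, then, Foxp3 rose and Ikzf2 and Nrp1 were not called changed, and the ratios of the 3 NAg libraries lay below those of all 3 N0 libraries for both. Itgae was at 0.22 ± 0.36 in T0 and -3.46 ± 0.64 in TAg. Lrrc32 was at -2.83 ± 0.20 in T0 and 0.45 ± 0.16 in NPI, the ends of its range. These ratios were not tested.

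**Figure D5:**
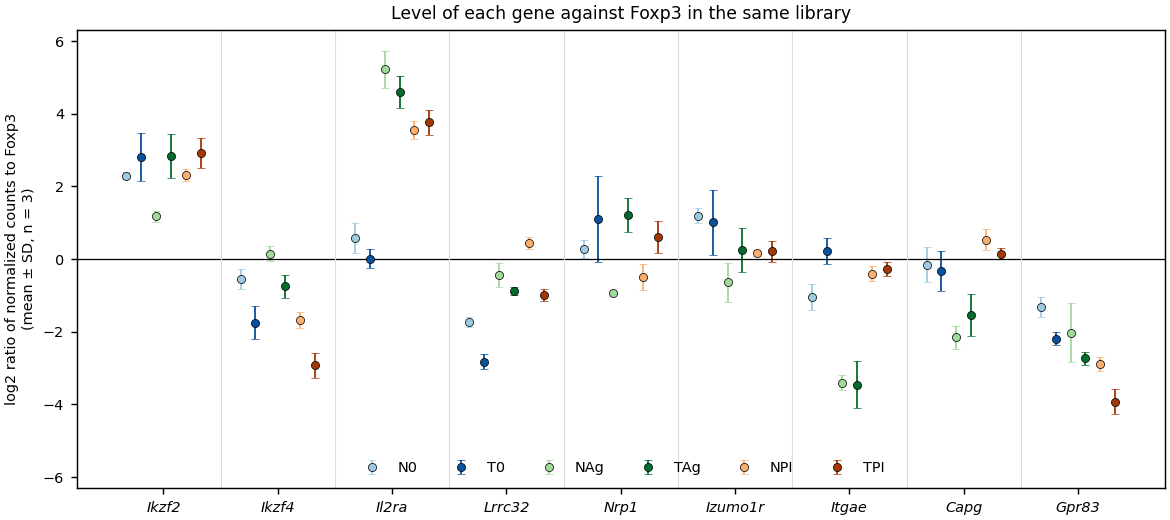
Log2 ratio of the normalized count of each gene to that of Foxp3 in the same library, mean ± SD of 3 libraries in each of the 6 groups. Il2ra spans from 0.01 in T0 to 5.22 in NAg, and Itgae from -3.46 in TAg to 0.22 in T0.

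Other genes that Treg cells are known to use were counted in a list of 24, all tested. At rest 10 of 24 were higher and 1 lower in tolerized cells (median log2 fold change 0.96), where 8.42% of all tested genes were higher and 12.0% lower. After peptide 10 were higher and 3 lower (0.59), against 20.9% and 18.5% of all genes, and after PI 16 higher and 3 lower (1.14), against 18.2% and 19.7%. Ctla4, the inhibitory receptor that strips CD80 and CD86 from antigen-presenting cells, was higher by 2.18 ± 0.20 at rest, 0.95 ± 0.18 after peptide and 2.60 ± 0.19 after PI (adjusted p = 6.2e-06, 0.000918 and 1.05e-07). Tigit, another inhibitory receptor, was higher by 1.87 ± 0.39, 2.86 ± 0.34 and 2.30 ± 0.33 at rest, after peptide and after PI (adjusted p = 0.00501, 2.54e-05 and 9.17e-05). Nt5e, the CD73 enzyme that makes adenosine, was higher in all 3 as well (2.09, 2.55 and 3.57, adjusted p = 0.00189, 0.00182 and 7.7e-06), and it fell with peptide, with log2 fold changes of -2.23 in tolerized and -2.69 in naive cells (adjusted p = 0.000187 and 0.000426). Anergic and Tr1 cells share these 3 genes, so they are not particular to Treg cells.

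Within the same list Ikzf1, the Ikaros founder of the Ikzf2 and Ikzf4 family, was lower in tolerized cells in all 3 conditions (-0.38, -0.46 and -0.59, adjusted p = 0.00114, 4.23e-05 and 1.52e-06), the opposite of Ikzf2. Ecm1 (-0.47 and -0.50) was lower after peptide and after PI and Swap70 (-0.96) after peptide, all past the threshold. On stimulation with peptide 18 of the 24 rose in naive cells and 16 in tolerized cells, with 2 and 4 lower, where 32.1% and 29.9% of all genes were higher and 33.4% and 29.8% lower. Tnfrsf9, the costimulatory receptor 4-1BB, rose in both (4.64 ± 0.30 and 5.02 ± 0.30), as did the transcription factor Plagl1 (5.17 ± 0.39 and 4.56 ± 0.37). Areg, the tissue-repair growth factor, rose by 5.26 ± 0.95 in naive and 3.69 ± 0.84 in tolerized cells (adjusted p = 0.00024 and 0.00164). Tnfrsf4, which encodes OX40, rose by 3.37 ± 0.17 and 3.97 ± 0.17 (adjusted p = 3.4e-11 and 4.77e-12).

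Regulators and partners of Foxp3 showed no common direction. Of 22 such genes 2 were higher and 6 lower in T0 than in N0 (median log2 fold change -0.14), 7 higher and 9 lower in TAg than in NAg (-0.03), and 8 higher and 7 lower in TPI than in NPI (-0.06). Of all genes 8.42% were higher and 12.0% lower at rest, 20.9% and 18.5% after peptide and 18.2% and 19.7% after PI, so the share higher at rest was near that of all genes. Nfatc1 was higher in tolerized cells at rest (0.49 ± 0.09, adjusted p = 0.000575) and after PI (1.48 ± 0.09, adjusted p = 2.61e-11), and the Runx factor gene Runx3 at rest (0.38 ± 0.08, adjusted p = 0.000976). Satb1, a chromatin organizer that Foxp3 represses in Treg cells, was lower in tolerized cells throughout (-0.97, -1.79 and -1.09, adjusted p = 2.24e-07, 1.18e-12 and 3.2e-09). Rel, the c-Rel subunit needed to start Foxp3 expression, rose with peptide by 4.2 ± 0.10 in naive and 3.05 ± 0.09 in tolerized cells and was lower in TAg than in NAg (-1.32 ± 0.09, adjusted p = 3.58e-11). After PI the order of Rel turned, with TPI above NPI (0.64 ± 0.08, adjusted p = 1.67e-06). Bach2, a repressor that favours Treg cells, was lower in T0 than in N0 (-0.93, adjusted p = 4.08e-06) and in TPI than in NPI (-0.33, adjusted p = 0.0168) and higher in TAg than in NAg (0.66, adjusted p = 3.88e-05).

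Of 11 genes known to be low in Treg cells, 1 was higher and 5 lower in T0 than in N0 (median log2 fold change -0.27), 4 higher and 4 lower in TAg than in NAg (-0.19), and 1 higher and 5 lower in TPI than in NPI (-0.72). Over all genes the shares were 8.42% higher and 12.0% lower, 20.9% and 18.5%, and 18.2% and 19.7% in that order, and the 1 gene higher at rest is near that background. Pde3b, a phosphodiesterase gene that Foxp3 represses, was lower at rest (-1.30 ± 0.13, adjusted p = 4.31e-06), after peptide (-0.54 ± 0.14, adjusted p = 0.0056) and after PI (-1.44 ± 0.13, adjusted p = 1.81e-07). Il7r, the IL-7 receptor that most Treg cells lack, went the other way, higher in T0 than in N0 (0.51 ± 0.13, adjusted p = 0.0083) and in TAg than in NAg (0.63 ± 0.13, adjusted p = 0.000879). Of 7 Tr1 genes, 6 were higher in T0 than in N0 (median log2 fold change 2.50, against 1.15 for the 10 Treg genes). The Tr1 genes Il10 (5.43 ± 0.79), Lag3 (2.91 ± 0.42) and Maf (2.66 ± 0.33) led the list at rest (adjusted p = 0.000378, 0.000368 and 0.000128). In TAg against NAg and in TPI against NPI 6 of the 7 were higher, against 20.9% and 18.2% of all genes. The other, Itga2, was lower in both (-1.11 ± 0.27 and -1.13 ± 0.27, adjusted p = 0.00369 and 0.0029).

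The genes whose profile over the 18 libraries was most like that of Foxp3 were not other members. Among 12124 genes with a mean normalized count of at least 20, the smallest root mean square differences of mean-centred log2 CPM to Foxp3 were those of Serpinb1a (0.39), Fam129a (0.40), Cysltr2 (0.40), Ptpn3 (0.43) and Pcgf2 (0.45). Ikzf2 ranked at 236, Izumo1r at 557 and Il2ra at 11728. Serpinb1a, a serpin gene, averaged 43.4 normalized counts in N0, 119 in T0, 139 in NAg and 174 in TAg, low in N0 and high after peptide as Foxp3 was. Around Ikzf2 the nearest were Kif13a (0.32), B4galnt4 (0.32), Nkg7 (0.38), Casp1 (0.40) and Gpm6b (0.40), with Nrp1 at rank 10 (0.46), Izumo1r at rank 41 (0.60) and Foxp3 at rank 101 (0.69). The members most like Ikzf2 were thus Nrp1 and Izumo1r. All these profiles come from the same 18 libraries and share their depth and cell mixture.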

How the data were processed

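RNA-seq was done on 18 libraries, 3 in each of 6 groups taken from the sample labels. The deposited files hold raw counts per Ensembl gene, which the authors made by aligning reads to mm9 with TopHat2 2.1.1 and counting with HTSeq 0.9.1. The strand setting is not given in the sources used here. Of 37991 identifiers 37205 matched the NCBIM37 annotation.

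Counts were normalized by TMM (trimmed mean of M-values) and tested with edgeR 4.0.16 (R 4.3.3), by quasi-likelihood F tests in a fit of all 6 groups with no covariate. Genes with a mean normalized count of at least 3 in 1 group were tested, with Benjamini-Hochberg adjustment and a threshold of 0.05. SE was derived from the F statistic. Levels between genes were CPM per kb of the union of exons. Alternatives were DESeq2 1.42.0, its size factors, no filter, a replicate block, marker scores, a Y-linked term, only the groups compared, the study's limits (2-fold, mean count of 50) and leaving out each library. The procedure was tested on simulated data.

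Members and gene lists were chosen with earlier results of these data known. Named genes were all members, the IL-2 list and the 5 genes most like Foxp3 or Ikzf2. In each other list a rule picked up to 3 genes with the highest and up to 3 with the lowest fold change past the threshold. It was applied to T0 against N0, TAg against NAg, TPI against NPI, NAg against N0 and TAg against T0. Only part of the genes picked by this rule are named here, so those named are not always the extremes of their list. Marker genes are named beside the results they touch. A gene of the wider Treg list is counted but not reported by name here. Promoters came from RefSeq (GRCm38.p6), with no entry for Ikzf2, Ikzf4, Lrrc32 and Itgae.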

Additional observations from a re-analysis of the deposited data

Results flagged for a closer look

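The response to peptide differed between tolerized and naive cells for 2 of the 10 genes by a test of the difference itself (edgeR's quasi-likelihood test over all 18 libraries, adjusted over 17240 genes). Of all tested genes 7.09% had a lower and 14.6% a higher response in tolerized cells, so 2 of 10 is near the background. For Il2ra the difference was -1.03 ± 0.31 (SE) on the log2 scale (adjusted p = 0.0298): the rise was 6.05 in naive and 5.02 in tolerized cells. It missed the threshold in 6 of 12 fits that left out 1 library, where it was -1.03 to -0.69. For Itgae it was -2.40 ± 0.71 (adjusted p = 0.0296), from -0.86 in naive and -3.26 in tolerized cells, and it missed the threshold in 8 of 12 such fits, at -2.41 to -2.02. Among libraries without Y-linked reads the log2 ratio of TAg to T0 for Itgae was -2.37, and among those with them it was -3.13.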

How the results depend on the processing

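Other size factors (those of DESeq2) changed no call among the 90 log2 fold changes of the 10 genes, and DESeq2 itself added 2 calls. Same-numbered libraries did not deviate together: the correlation of their deviations was -0.161 to 0.0906 over 45 pairs, 0 of them over 0.1. With the replicate number as a block, the members with a smaller peptide response in tolerized cells fell from 2 to 1 (Itgae -2.36, adjusted p = 0.0548), Ikzf2 in the difference in PI response became -0.024, and no other call changed.

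Members higher in T0 than in N0 numbered 7, against 0 with marker scores, 4 with the Y-linked term and 3 in a fit of the groups compared alone, and those in TPI against NPI 7, against 2 with marker scores. Members lower in NAg than in N0 numbered 1, against 0 with no filter on low counts or under the study's limits of fold and count and 2 with the Y-linked term or the groups compared alone. In TAg against T0, 3 higher became 5 with the groups compared alone, and 2 lower became 1 under the study's limits. In NPI against N0, 1 lower became 2 by DESeq2 and 0 with no filter or with marker scores, and in TPI against T0, 2 lower became 0 with marker scores and 1 under the study's limits. The 2 smaller peptide responses became 1 with the Y-linked term and 0 with marker scores or the groups compared alone. Leaving out 1 library at a time gave 5 to 8 higher in T0 against N0, 5 to 7 in TPI against NPI, 0 to 1 lower in TAg against NAg, 0 to 2 lower in NAg against N0, 0 to 3 lower in NPI against N0, 0 to 2 smaller peptide responses, and 0 to 1 larger and 0 to 1 smaller PI responses. The cause of these changes was not tested, and the shares of all genes called in these other fits were not counted.

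Signs turned as follows. With the Y-linked term the log2 values were -0.020 for Ikzf4 in T0 against N0, 0 for Lrrc32 in T0 against N0, -0.099 for Lrrc32 in TAg against NAg, -0.16 for Itgae in TAg against NAg, 0.097 for Gpr83 in TAg against T0, -0.097 for Foxp3 in NPI against N0, -0.11 for Itgae in NPI against N0, 0.026 for Nrp1 in TPI against T0 and 0.28 for Foxp3 in the difference in PI response. With marker scores they were -0.021 for Ikzf4 in T0 against N0, -0.040 for Nrp1 in NAg against N0, 0.36 for Nrp1 in NPI against N0, 0.64 for Nrp1 in TPI against T0, 0.22 for Itgae in TPI against T0, 0.033 for Izumo1r in TPI against T0 and 0.025 for Capg in the difference in peptide response. With the groups compared alone it was -0.080 for Ikzf2 in the difference in PI response. Over left-out libraries the values spanned -0.016 to 0.37 for Ikzf4 in T0 against N0, -0.11 to 0.24 for Lrrc32 in TAg against NAg, -0.15 to 0.14 for Ikzf4 in TPI against NPI, -0.044 to 0.58 for Ikzf2 in NAg against N0, -0.29 to 0.38 for Nrp1 in NAg against N0, -0.42 to 0.25 for Gpr83 in TAg against T0, -0.043 to 0.66 for Foxp3 in TPI against T0, -0.28 to 0.15 for Nrp1 in TPI against T0, -0.58 to 0.11 for Itgae in TPI against T0, -0.033 to 0.59 for Ikzf2 in the difference in peptide response, -0.16 to 0.63 for Izumo1r in the difference in peptide response, -0.26 to 0.036 for Capg in the difference in peptide response, -0.52 to 0.18 for Foxp3 in the difference in PI response, -0.23 to 0.30 for Ikzf2 in the difference in PI response, -0.083 to 0.58 for Nrp1 in the difference in PI response and -0.29 to 0.50 for Izumo1r in the difference in PI response. The standard errors of the members ran up to 0.71 on the log2 scale, for Itgae in the difference in peptide response.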
